A study of Homo sapiens with 20 samples.

Results

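The probe sets for the RNA-binding proteins QKI, PUM2, IGF2BP1, IGF2BP2, IGF2BP3, MSI1 and MSI2 were examined after induction of EGFP-tagged ZFP36 in HEK293 cells, a human embryonic kidney line. Members were all probe sets of the array that the platform annotation gives to exactly 1 of these 7 genes, which was 32 of 50441 probe sets (9 for QKI, 3 for PUM2, 3 for IGF2BP1, 2 for IGF2BP2, 4 for IGF2BP3, 1 for MSI1 and 10 for MSI2). The series held 20 Affymetrix Human Genome U133 Plus 2.0 arrays in 4 groups of 5. Induced arrays came from Flp-In T-REx HEK293 cells carrying EGFP-ZFP36 that received doxycycline at 1 μg/ml for 16 h and were sorted for green fluorescence. Mock-induced arrays came from the same line given water, with fluorescent cells excluded at the sorter. Parental doxycycline and parental vehicle arrays came from Flp-In T-REx HEK293 cells with no ZFP36 transgene, given doxycycline or water. Flasks with doxycycline were less confluent than the mock-induced flasks and held more floating and rounded cells. Transgene expression, sort gate and cell density thus all separate the induced from the mock-induced cultures and cannot be told apart. Cells of several flasks were pooled for each sample and the experiment was repeated on separate days. The sources used here do not say whether the EGFP-ZFP36 line is a single clone.

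ZFP36 (tristetraprolin) is a zinc-finger protein that binds AU-rich stretches of 3′ UTRs and recruits the deadenylation machinery, which shortens the life of the mRNA. The 7 genes encode other sequence-specific RNA-binding proteins. QKI (Quaking) is a KH-domain protein of the STAR family that directs splicing, circular RNA formation and mRNA stability. MSI1 and MSI2 (Musashi) bind UAG-containing motifs in 3′ UTRs and modulate translation, and are best known from stem and progenitor cells. PUM2 is a Pumilio repeat protein that represses and destabilises mRNAs bearing the Pumilio response element. The IGF2BP proteins bind mRNA cargo through KH domains, protect it from decay and act as readers of N6-methyladenosine (m6A). IGF2BP1 and IGF2BP3 are largely fetal proteins whose mRNAs HEK293 cells retain.

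ZFP36 binding sites within 3′ UTRs of 2 of the 7 genes are shown because these are stretches of member mRNA crosslinked to ZFP36 in the study's PAR-CLIP experiment, which used a separate HEK293 line with FLAG/HA-tagged ZFP36 and not the EGFP-ZFP36 line of the arrays. Sequences come from the study's site table, of which part was used here, so nothing follows for genes with no site listed. Each is given 5′ to 3′ on the mRNA strand with T for U, and capitals mark TATT and ATTTA (these can overlap), short cores of AU-rich elements.
QKI site 1: tcacatctcacattaaatTATT
QKI site 2: ttttttctcccttcaTATTttaacttat
QKI site 3: tatcaattagaaatttcttct
QKI site 4: aATTTATTtctTATTaaaatatg
IGF2BP3 site 1: aTATTctaattcttcttaaTATT
In hg19 coordinates the QKI sites lie on the plus strand at chr6:163986833-163986854, chr6:163988005-163988032, chr6:163990869-163990889 and chr6:163994287-163994309, all annotated to the 3′ UTR. The IGF2BP3 site lies in the 3′ UTR on the minus strand at chr7:23351657-23351679. TATT occurred in 4 of these 5 sites, the exception being QKI site 3, and ATTTA occurred in QKI site 4 alone. Among the 784 3′ UTR sites of 21 to 28 bases in the rows used, 76.4% held TATT and 40.8% held ATTTA. On the opposite strand, which the mRNA does not carry, TATT was found in 2 of the 5 sites and in 31.9% of the 784, and ATTTA in 1 of the 5 and in 17.6%. These matches describe the sequences and were not related to the array values.

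Array levels are GCRMA values on the log2 scale, from a floor of 2.19 up to 16.6. Arrays of 1 group correlated at 0.982 or more, and parental vehicle replicates 3 and 4 stood apart, with a mean correlation to their own group of 0.989 each. Spiked poly-A control transcripts averaged 8.06 ± 0.21 on induced and 7.74 ± 0.16 on mock-induced arrays (SD, n = 5 each, exact permutation p = 0.0238). For the actin control the 3′ probe set exceeded the 5′ one by 1.31 on induced and 1.52 on mock-induced arrays (exact permutation p = 0.0476, n = 5 each). The part of these in the results below was not tested. Means of the ZFP36 probe set were 5.42 (induced), 5.36 (mock-induced), 3.76 (parental with doxycycline) and 3.45 (parental with vehicle). Whether it lies in the transgene transcript is not known here, so it does not check the induction. Of 8 HEK293 marker genes, 6 had a probe set naming them alone (CDH2, INA, NEFL, NEFM, PAX2 and VIM), and KRT8 and KRT18 had none. All 6 had a mean above 4.5 in at least 1 group, against 0 of 4 blood cell and 0 of 6 fibroblast and endothelial markers.

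Induced cells had lower levels than their mock-induced counterparts at 5 of 5 QKI and 4 of 8 MSI2 probe sets tested, by 3.10-fold to 6.84-fold for those measured above background in both groups. IGF2BP1 was higher by 2.91-fold at 1 of its 2 probe sets. PUM2, IGF2BP2 and IGF2BP3 differed by less than 1.5-fold and did not pass the threshold. Of the 32 probe sets, 21 had a group mean above 4.5 in at least 1 group and were tested among 18639 probe sets with limma, where a call is a Bonferroni-adjusted p under 0.01. Of these, 9 were lower, 1 was higher and 11 did not pass. Across all probe sets tested, 44.0% were called, 21.8% lower and 22.1% higher, so the 10 calls among 21 lie close to the rate of the probe sets tested with them, and their split by direction is given beside it as a description. With no filter on low values, 9 of the same 21 members and 15.2% of 38070 probe sets were called. The members counted there had still passed the filter, while the 38070 include probe sets near background, so these shares cannot be compared. The median difference was −0.51 over the members and 0.12 over all probe sets tested. Centring arrays on the poly-A controls put the median of all at −0.20 and turned 5596 of 8143 calls to the lower side, against 4072 of 8198 on the deposited scale, while the members gave 9 lower and 2 higher. With hybridization controls the median of all was 0.0023. Groups did not overlap at 19 of the 21 member probe sets, against 76.9% of all tested, and at 2 of the 19 (MSI2 1552364_s_at and 225233_at) the means of both groups were under 4.5. With Benjamini-Hochberg adjustment at 0.05 the calls were 20 of 21 members and 85.5% of all. In these bulk samples, less mRNA in each cell and fewer cells with the mRNA cannot be told apart.

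QKI read lower on the induced arrays at each of its 5 tested probe sets. At 212265_at, its probe set with the highest mean over the 20 arrays, levels were 11.17, 11.25, 11.44, 11.38 and 11.38 in induced cells, against 13.41, 13.55, 13.62, 13.53 and 13.67 in mock-induced cells. The highest induced array lay about 2 log2 units below the lowest mock-induced one. The difference was −2.23 (SE 0.07, limma, Bonferroni-adjusted p = 1.06e-07), or 4.70-fold. In parental cells the same probe set averaged 13.59 ± 0.12 with doxycycline and 13.67 ± 0.13 with vehicle (SD, n = 5 each). The order from high to low was parental vehicle, parental doxycycline, mock-induced and induced, where the first 3 groups overlapped their neighbours and the induced group did not.

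At 212636_at QKI fell to background. Induced arrays read 4.08, 3.64, 4.14, 4.16 and 3.93, against 9.36, 9.35, 9.49, 9.55 and 9.79 on mock-induced arrays. Because all 5 induced arrays were under 4.5, the fold is a bound, at least 32.2-fold lower, taken from 4.5 to the mock-induced mean of 9.51. The induced mean was 3.99, and the limma Bonferroni-adjusted p was 1.62e-09. Parental cells read 9.98 ± 0.10 with doxycycline and 10.07 ± 0.22 with vehicle (SD, n = 5 each).

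The other 3 tested QKI probe sets also read lower in induced cells. For 212262_at the induced arrays read 7.15, 7.10, 7.31, 7.06 and 7.08, against 9.81, 9.92, 9.95, 9.88 and 10.01 in mock-induced cells, a difference of −2.77 (SE 0.06, limma, Bonferroni-adjusted p = 3.54e-09). For 212263_at the induced arrays read 11.16, 11.27, 11.13, 11.29 and 11.20, against 12.91, 13.01, 12.94, 12.96 and 12.93, the smallest of the QKI differences at −1.74 (SE 0.05, limma, Bonferroni-adjusted p = 3.43e-08). For 1555154_a_at the induced arrays read 6.48, 6.41, 7.08, 6.96 and 6.89, against 9.44, 9.40, 9.22, 9.59 and 9.40, a difference of −2.64 (SE 0.13, limma, Bonferroni-adjusted p = 1.72e-05). At none of these 3 did an induced array reach a mock-induced one, but the 5 probe sets did not fall by the same amount. Of the 6 pairs among the 4 QKI probe sets above 4.5 in both groups, 5 had unequal changes at an exact permutation p under 0.05, and 4 reached 0.00794, the smallest that 5 against 5 arrays allow. The fall at 212262_at was larger than that at 212263_at by 1.04 (SE 0.08, exact permutation p = 0.00794), and 1555154_a_at and 212262_at differed by 0.13 (SE 0.15, exact permutation p = 0.373). QKI is spliced into isoforms with different ends, and the sources used here do not say which of them each probe set detects. Why the changes were unequal was not tested. Of the 4 QKI probe sets under the filter, 214541_s_at was at the floor on all 20 arrays, and 236154_at was at the floor on the induced arrays and averaged 3.17 on mock-induced arrays.

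**Figure D1:**
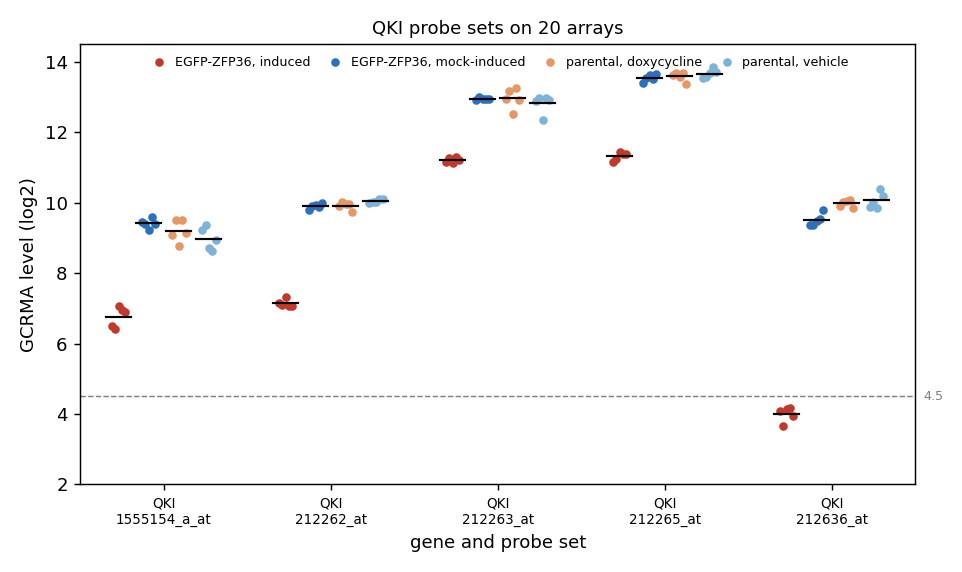
GCRMA levels (log2, y axis) of the 5 tested QKI probe sets (x axis) on 20 arrays, with 1 point per array, a black bar at the mean of the 5 arrays of a group, and a dashed line at 4.5, the filter. Induced arrays lie below all others at each probe set, by the most at 212636_at, where they read 3.64 to 4.16.

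MSI2 split by probe set. At 225240_s_at, its probe set with the highest mean, induced arrays read 9.89, 9.85, 9.56, 9.55 and 9.95, against 11.51, 11.48, 11.35, 11.35 and 11.28 on mock-induced arrays. The groups lay more than 1 log2 unit apart, with a difference of −1.63 (SE 0.09, limma, Bonferroni-adjusted p = 5.15e-05), or 3.10-fold. At 225237_s_at the levels were 7.93, 7.64, 7.74, 7.56 and 7.92 in induced cells, against 9.79, 9.79, 9.78, 9.64 and 9.75 in mock-induced cells, a difference of −1.99 (SE 0.08, limma, Bonferroni-adjusted p = 1.35e-06). At 225238_at they were 6.07, 5.94, 5.93, 6.07 and 5.84 in induced cells, against 8.01, 8.16, 7.93, 7.95 and 7.96, a difference of −2.03 (SE 0.07, limma, Bonferroni-adjusted p = 1.67e-07). The fourth, 226134_s_at, averaged 9.34 ± 0.15 in induced and 11.05 ± 0.16 in mock-induced cells (SD, n = 5 each), a difference of −1.71 (SE 0.09, limma, Bonferroni-adjusted p = 3.52e-05). At all 4 the induced arrays lay below every array of the other groups, and their changes differed from each other by at most 0.40. At 225240_s_at the order from high to low was mock-induced, parental doxycycline, parental vehicle and induced, with overlap among the first 3.

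Among the MSI2 probe sets with means above 4.5 in both groups, 243010_at alone read in the other direction. At 243010_at induced arrays read 7.23, 7.20, 7.14, 7.20 and 6.59, against 5.82, 5.88, 5.15, 5.44 and 5.39 on mock-induced arrays. The groups did not overlap and the difference was 1.54 (SE 0.16), but it did not pass the threshold (limma, Bonferroni-adjusted p = 0.0336, exact permutation p = 0.00794). It passed with arrays centred on the poly-A controls (difference 1.22, Bonferroni-adjusted p = 1.68e-05) or the hybridization controls (1.42, Bonferroni-adjusted p = 0.00162), and without induced replicate 5 (1.66, Bonferroni-adjusted p = 0.00926). It also passed with a mean-variance trend (limma, Bonferroni-adjusted p = 0.00985) and with all 20 arrays in 1 model (5.76e-05). It did not pass with arrays centred on the median of tested probe sets, with no filter on low values or with replicate numbers as a block. The changes at 243010_at and 225238_at, opposite in sign, lay 3.57 apart (SE 0.14, exact permutation p = 0.00794). At 243579_at the groups overlapped, at 7.05 ± 0.18 in induced and 7.19 ± 0.09 in mock-induced cells (SD, n = 5 each). The last pair, 1552364_s_at and 225233_at, passed the filter through the parental doxycycline group alone, and both read under 4.5 on average in induced and mock-induced cells, so no fold is given. Of the 15 pairs among the other 6 MSI2 probe sets, 12 had unequal changes at an exact permutation p under 0.05 and 10 reached 0.00794. The sources used here do not say which part of the MSI2 gene 243010_at detects.

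**Figure D2:**
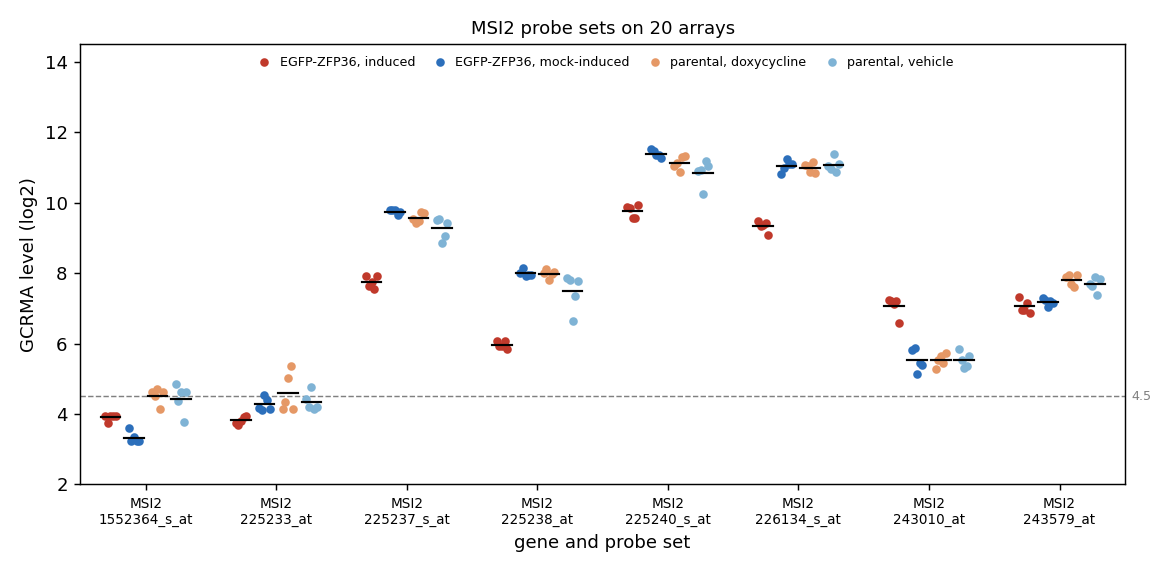
GCRMA levels (log2, y axis) of the 8 tested MSI2 probe sets (x axis) on 20 arrays, with 1 point per array, a black bar at the mean of each group of 5, and a dashed line at 4.5. Induced arrays lie below the other groups at 225237_s_at, 225238_at, 225240_s_at and 226134_s_at, and above them at 243010_at.

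MSI1, the other Musashi gene, was represented by 206333_at, which read between 2.19 and 2.95 on the 20 arrays and was not tested.

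IGF2BP1 was higher in induced cells at 223689_at. Levels there were 9.36, 9.36, 8.89, 9.38 and 9.11 in induced cells, against 7.79, 7.86, 7.49, 7.58 and 7.69 in mock-induced cells. The induced arrays also lay above both parental groups, which averaged 8.14 ± 0.18 with doxycycline and 8.14 ± 0.07 with vehicle (SD, n = 5 each). The difference between induced and mock-induced cells was 1.54 (SE 0.11, limma, Bonferroni-adjusted p = 0.000555), or 2.91-fold. With no filter on low values, where p-values are adjusted over 38070 probe sets, its limma Bonferroni-adjusted p was 0.0225. At 227377_at, its other tested probe set, induced arrays read 9.55, 9.71, 9.64, 9.88 and 9.81, against 9.03, 9.05, 9.06, 9.24 and 9.10 in mock-induced cells. The groups did not overlap, and the difference of 0.62 (SE 0.07) did not pass the threshold (limma, Bonferroni-adjusted p = 0.0725). The order there was induced, parental doxycycline, parental vehicle and mock-induced, and each group overlapped its neighbour. The changes of the 2 IGF2BP1 probe sets differed by 0.92 (SE 0.14, exact permutation p = 0.00794).

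For IGF2BP2 and IGF2BP3 the differences were small. At 218847_at IGF2BP2 read 11.17, 11.13, 11.17, 11.13 and 11.25 in induced cells, against 10.85, 10.96, 10.97, 10.92 and 10.85 in mock-induced cells, a difference of 0.26 (SE 0.05, 95% CI 0.15 to 0.36, exact permutation p = 0.00794). At 203819_s_at, the IGF2BP3 probe set with the highest mean, levels were 12.12, 12.17, 12.13, 12.04 and 12.14 in induced cells, against 11.85, 11.80, 11.90, 11.78 and 11.75, a difference of 0.30 (SE 0.05, 95% CI 0.20 to 0.41, exact permutation p = 0.00794). Neither passed the Bonferroni threshold, although in both the induced arrays lay above the mock-induced ones. IGF2BP2 averaged 10.65 ± 0.11 with doxycycline and 10.60 ± 0.26 with vehicle in parental cells, and IGF2BP3 203819_s_at 11.97 ± 0.13 with doxycycline and 11.90 ± 0.28 with vehicle (SD, n = 5 each), values that overlapped between the treatments. The other IGF2BP3 probe sets gave 0.26 (SE 0.06) at 203820_s_at, where the groups did not overlap, and 0.31 (SE 0.08) at 216493_s_at, where they did (exact permutation p = 0.0159). The 3 IGF2BP3 changes differed from each other by at most 0.049, with exact permutation p-values of 0.452 to 0.929. Each of these 4 differences was about the size of the 0.32 difference in the poly-A controls, and with arrays centred on those controls they were −0.062 for IGF2BP2 and between −0.059 and −0.011 for IGF2BP3. No direction is therefore given for IGF2BP2 or IGF2BP3.

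PUM2 read 1.42-fold and 1.45-fold lower at its probe sets, and neither passed the threshold. At 201493_s_at its levels were 10.02, 9.91, 9.99, 9.93 and 10.11 in induced cells, against 10.54, 10.51, 10.50, 10.48 and 10.46 in mock-induced cells. The 2 groups lay apart on all arrays, with a difference of −0.51 (SE 0.05, limma, Bonferroni-adjusted p = 0.0167, exact permutation p = 0.00794). At 216221_s_at the levels were 9.62, 9.44, 9.41, 9.60 and 9.46 in induced cells, against 10.08, 10.15, 10.10, 10.01 and 9.86, a difference of −0.53 (SE 0.07, limma, Bonferroni-adjusted p = 0.191, exact permutation p = 0.00794). The changes of the PUM2 probe sets differed by 0.028 (SE 0.07, exact permutation p = 0.730). At 201493_s_at the difference passed with a mean-variance trend (limma, Bonferroni-adjusted p = 0.00193), with all 20 arrays in 1 model (0.00108) and with 1 probe set for each gene, an alternative added after seeing the data (0.00972). It did not pass with arrays centred on either set of controls or on the median of tested probe sets, or with no filter on low values. The other probe set, 216221_s_at, passed with all 20 arrays in 1 model (limma, Bonferroni-adjusted p = 0.00448). In parental cells 201493_s_at averaged 10.88 ± 0.13 with doxycycline and 10.80 ± 0.06 with vehicle (SD, n = 5 each). These groups overlapped each other and lay above mock-induced cells (10.50 ± 0.03, SD, n = 5).

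**Figure D3:**
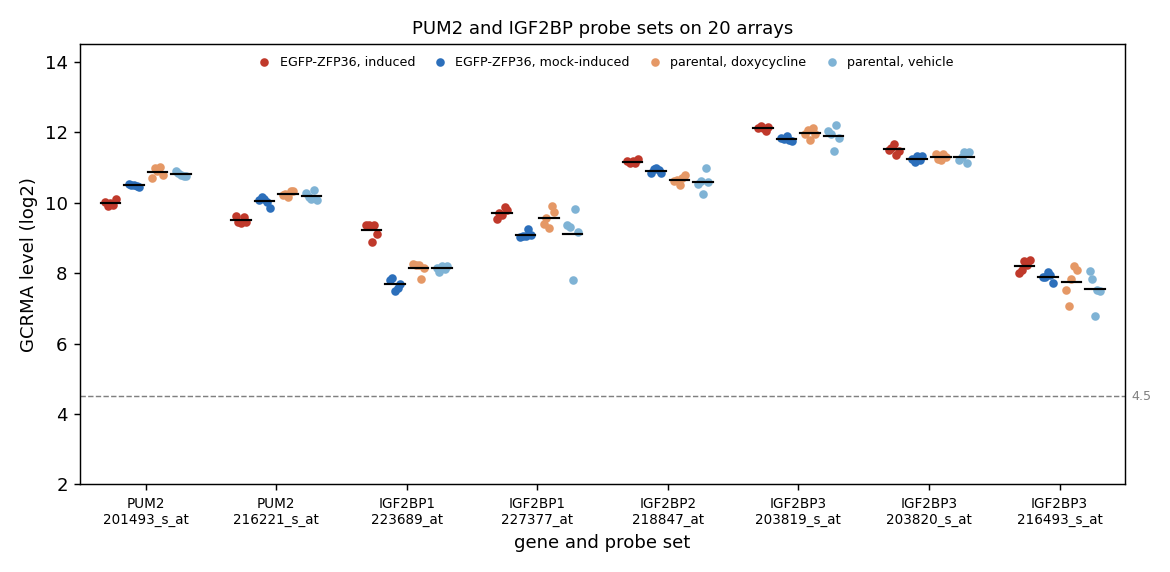
GCRMA levels (log2, y axis) of the 8 tested PUM2, IGF2BP1, IGF2BP2 and IGF2BP3 probe sets (x axis) on 20 arrays, with 1 point per array, a black bar at the mean of each group of 5, and a dashed line at 4.5. Induced arrays stand above the rest at IGF2BP1 223689_at and below the rest at both PUM2 probe sets, and 1 parental vehicle array read 7.81 at IGF2BP1 227377_at.

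Doxycycline alone, tested in parental cells, moved no member past the threshold. Of the 21 member probe sets, 0 were called by limma and 0 had groups that did not overlap, against 0% called and 0.258% not overlapping among all 18639 tested. With Benjamini-Hochberg adjustment the counts were also 0, and at an unadjusted p under 0.05 they were 2 of 21 members and 414 of 18639. The median difference was 0.073 over the members and 0.0028 over all. The 2 members were QKI 212262_at at −0.13 (SE 0.06, exact permutation p = 0.0238) and MSI2 225238_at at 0.51 (SE 0.21, exact permutation p = 0.0159). MSI2 225238_at read 8.01, 8.11, 7.79, 7.97 and 8.03 with doxycycline, against 7.85, 7.79, 6.63, 7.34 and 7.78 with vehicle, and without vehicle replicate 3 the difference was 0.29. At QKI 212636_at the difference was −0.09 (SE 0.10, 95% CI −0.32 to 0.14). IGF2BP1 227377_at gave 0.48 (SE 0.32), and 0.16 without vehicle replicate 3, the array that read 7.81.

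**Figure D4:**
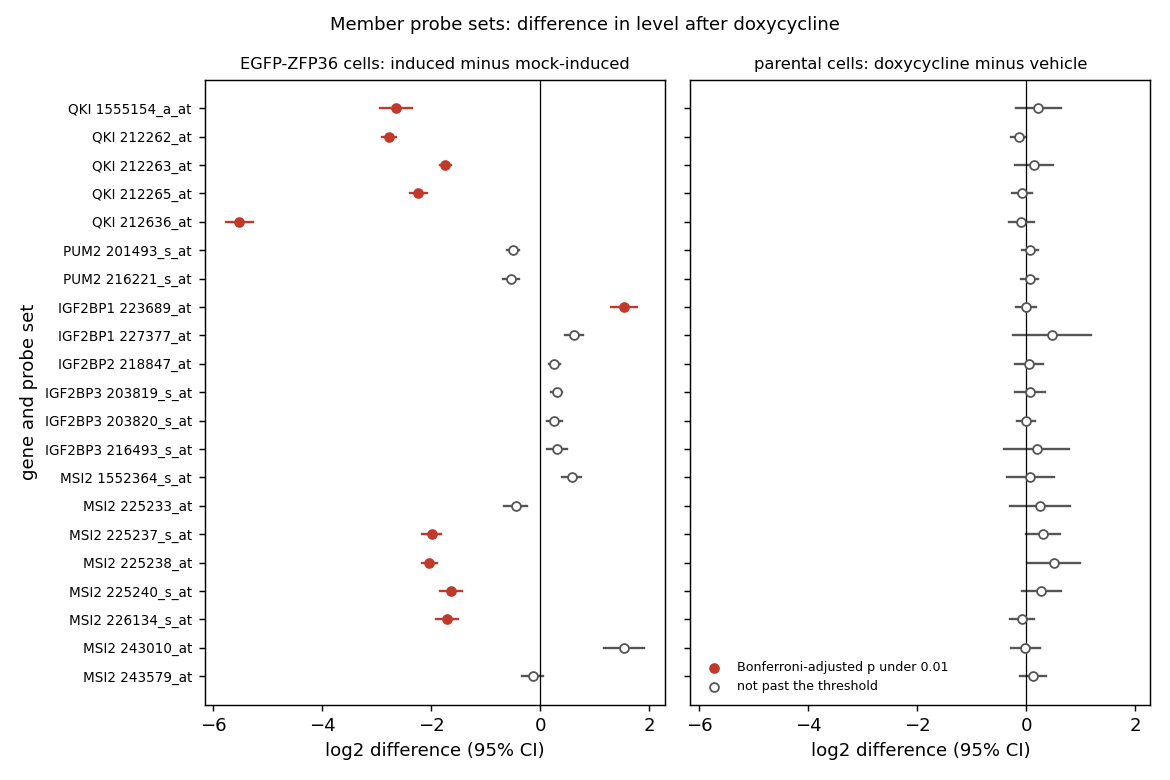
Log2 difference (x axis, with 95% confidence interval from limma) of the 21 tested member probe sets (y axis) in EGFP-ZFP36 cells, induced minus mock-induced (left), and in parental cells, doxycycline minus vehicle (right). Filled points passed a Bonferroni-adjusted p under 0.01, which 10 did on the left and 0 on the right; on the left, QKI 212636_at has induced levels under 4.5, and MSI2 1552364_s_at and 225233_at have both means under 4.5, so their fitted points do not measure a size.

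The response to doxycycline differed between the lines for QKI, MSI2 and IGF2BP1. In a limma model of all 20 arrays, the difference of the 2 differences passed at 10 of 21 members, 9 lower and 1 higher, against 39.7% of all probe sets (20.6% lower and 19.1% higher). It was −2.16 (SE 0.11, Bonferroni-adjusted p = 5.85e-10) at QKI 212265_at and −1.92 (SE 0.19, Bonferroni-adjusted p = 0.00011) at MSI2 225240_s_at. QKI 212636_at passed as well (Bonferroni-adjusted p = 3.42e-14), with no size given because the induced arrays read under 4.5. For IGF2BP1 it was 1.54 (SE 0.14, Bonferroni-adjusted p = 2.74e-05) at 223689_at and 0.14 (SE 0.34) at 227377_at. The IGF2BP1 223689_at call was lost with arrays centred on the hybridization controls (1.34, limma, Bonferroni-adjusted p = 0.0105) or the poly-A controls (1.53, Bonferroni-adjusted p = 0.13), and that of MSI2 226134_s_at with the poly-A controls (−1.64, Bonferroni-adjusted p = 0.0256). MSI2 243010_at had 1.55 (SE 0.21, Bonferroni-adjusted p = 0.0106) and PUM2 201493_s_at −0.58 (SE 0.08, Bonferroni-adjusted p = 0.024), which did not pass. Both passed with a mean-variance trend (limma, Bonferroni-adjusted p = 0.00797 for MSI2 243010_at and 0.00626 for PUM2 201493_s_at). MSI2 243010_at also passed under other settings, among them centring on the median of tested probe sets (0.00176) and a filter at a mean above 6 (0.00782). Leaving out parental vehicle replicates 3 and 4 together, chosen after seeing the data, also gave 10 calls, 9 lower and 1 higher. Benjamini-Hochberg adjustment gave 16 members and 77.6% of all. This contrast shares all arrays of the 2 comparisons above and is not separate evidence.

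Uninduced EGFP-ZFP36 cells and parental vehicle cells differed in line and transgene, and by the methods also in passage dilution and days of growth. In that comparison 0 of 21 members were called by limma, against 17.1% of all probe sets (6.88% lower and 10.2% higher), and 11 members had an unadjusted p under 0.05, against 13595 of 18639. Benjamini-Hochberg adjustment gave 11 members and 70.7% of all. Groups did not overlap at 8 of 21 members and at 58.5% of all tested. The median difference was −0.057 over the members and 0.035 over all. Among the 8, QKI 212636_at read 9.51 ± 0.18 in mock-induced and 10.07 ± 0.22 in parental vehicle cells (SD, n = 5 each, difference −0.56, SE 0.12). MSI2 225237_s_at, 225238_at and 225240_s_at gave 0.48, 0.52 and 0.54, and 0.26, 0.19 and 0.44 without parental vehicle replicates 3 and 4. IGF2BP1 223689_at gave −0.46 (SE 0.08), PUM2 201493_s_at −0.31 (SE 0.05) and MSI2 243579_at −0.50 (SE 0.10). The last of the 8, MSI2 1552364_s_at, had both group means under 4.5, so no difference is given. This comparison shares the mock-induced arrays with the induction comparison.

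Across the 20 arrays, the genes whose pattern was most like that of QKI 212265_at were MAN1A1, a Golgi mannosidase (Pearson r 0.997), ASPH, an aspartate hydroxylase of the endoplasmic reticulum (r 0.996), and GTF2A1, a subunit of transcription factor TFIIA (r 0.996). For MSI2 225240_s_at they were ZCCHC24 (r 0.977), SREK1IP1 (r 0.976) and RAB11FIP2 (r 0.970), and for PUM2 201493_s_at CAPRIN1, an RNA-binding protein of stress granules (r 0.987), NUS1 (r 0.984) and SRSF8 (r 0.982). Likeness was lower for IGF2BP2 218847_at, with TULP3 (r 0.956), EXOSC2 and MPHOSPH8, for IGF2BP3 203819_s_at, with RSF1 (r 0.946), ZNF148 and TCF25, and for IGF2BP1 227377_at, with ZNF148 (r 0.926), SRP72 and ANKRD17. These correlations are over arrays that share the group structure, so a gene with a low level on the 5 induced arrays alone reaches a high r with QKI.

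Partners and relatives of the proteins were taken from fixed lists, with 1 probe set for each gene and the calls of the fit above, where 5198 of 10834 genes (48.0%) were called, 21.5% lower and 26.5% higher, with a median difference of 0.20. Among 20 tested genes of the same families and partners, 8 were lower and 2 higher, with a median of −0.31. NANOS1, which recruits deadenylases together with Pumilio proteins, read 7.03 ± 0.21 with induction and 10.76 ± 0.09 with mock induction (SD, n = 5 each, limma, Bonferroni-adjusted p = 1.58e-08). LIN28B, which blocks let-7 maturation, read 9.22 ± 0.08 with induction and 12.23 ± 0.07 with mock induction (SD, n = 5 each, limma, Bonferroni-adjusted p = 4.43e-10). STAU2, a double-stranded RNA-binding protein of neuronal granules, read 5.50 ± 0.20 with induction and 8.48 ± 0.11 with mock induction (SD, n = 5 each). NORAD, a noncoding RNA that sequesters Pumilio proteins, differed by −1.20 (SE 0.05), and CELF2, PCBP1, KHDRBS1 and STAU1 were the others lower. CPEB1, a regulator of cytoplasmic polyadenylation, was higher by 1.35 (SE 0.09) and PCBP2 by 0.49 (SE 0.05). Of 15 tested m6A writers, erasers and readers, 3 were lower (YTHDF3 at −1.14, CBLL1 and HNRNPA2B1) and 3 higher (VIRMA at 1.45, ALKBH5 and FTO), with a median of 0.10.

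mRNAs known from the literature as cargo or targets of these proteins moved in both directions. Of 10 tested IGF2BP cargo mRNAs, 3 were lower (LIN28B, SRF at −1.27 and the β-catenin gene CTNNB1 at −0.83) and 2 higher (the proliferation marker MKI67 at 1.13 and BTRC, an IGF2BP1 cargo, at 1.04), with a median of −0.39. Of 10 Pumilio targets, 2 were lower (SLBP, the histone stem-loop binding protein, at −1.80, and CDC25A at −0.91) and 1 higher (the kinesin KIF18A at 1.11), with a median of −0.20. Of 8 Musashi targets, 4 were lower and 0 higher, with a median of −1.24. These were the TGF-β receptor gene TGFBR1 at −2.51, the cell-cycle inhibitor genes CDKN1A at −2.22 and CDKN2B at −2.01, and the Notch ligand gene JAG1 at −1.55. NUMB, the Musashi target for which the family is best known, read 4.79 with induction and 4.24 with mock induction, which did not pass (limma, Bonferroni-adjusted p = 0.164). Of 9 QKI targets, 3 were lower (FOXO1 at −1.34, MACF1 at −0.88 and CTNNB1) and 1 higher (SIRT2 at 1.42), with a median of −0.81. MBP, the classic QKI target of oligodendrocytes, read 3.93 with induction and 5.25 with mock induction and was not called. LIN28B, CTNNB1, CDKN1B and NUMB stand in 2 lists each. The interaction, which called 44.8% of genes (21.0% lower and 23.7% higher), called 7 family and partner genes lower and 0 higher, 5 Musashi targets lower and 0 higher, and 2 m6A genes lower and 3 higher. It called 2 IGF2BP cargo mRNAs lower and 2 higher, 2 Pumilio targets lower and 1 higher, and 2 QKI targets lower and 1 higher. With limma in parental cells 0 genes of these lists were called, against 0% of the 10834 genes. Between mock-induced and parental vehicle cells, where 20.1% of genes were called (8.81% lower and 11.3% higher), 3 of 20 family and partner genes were higher (CELF2, NANOS1 and CPEB4) and 0 lower. The m6A list had 1 of 15 lower (RBM15B) and 0 higher, the IGF2BP cargo list 1 of 10 lower (FSCN1) and 0 higher, and the Pumilio target list 1 of 10 lower (CDC25A) and 2 higher (ATXN1 and CDKN1B). Of the QKI targets, 4 of 9 were higher (MAP1B, CDKN1B, SIRT2 and MACF1) and 0 lower, and of the Musashi targets, 3 of 8 were higher (JAG1, CDKN2B and TSPAN3) and 0 lower. JAG1 differed most in these lists, at 10.50 ± 0.07 with mock induction and 6.57 ± 0.15 in parental vehicle cells (SD, n = 5 each). These arrays of mock-induced cells are the ones the induction comparison uses.

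**Figure D5:**
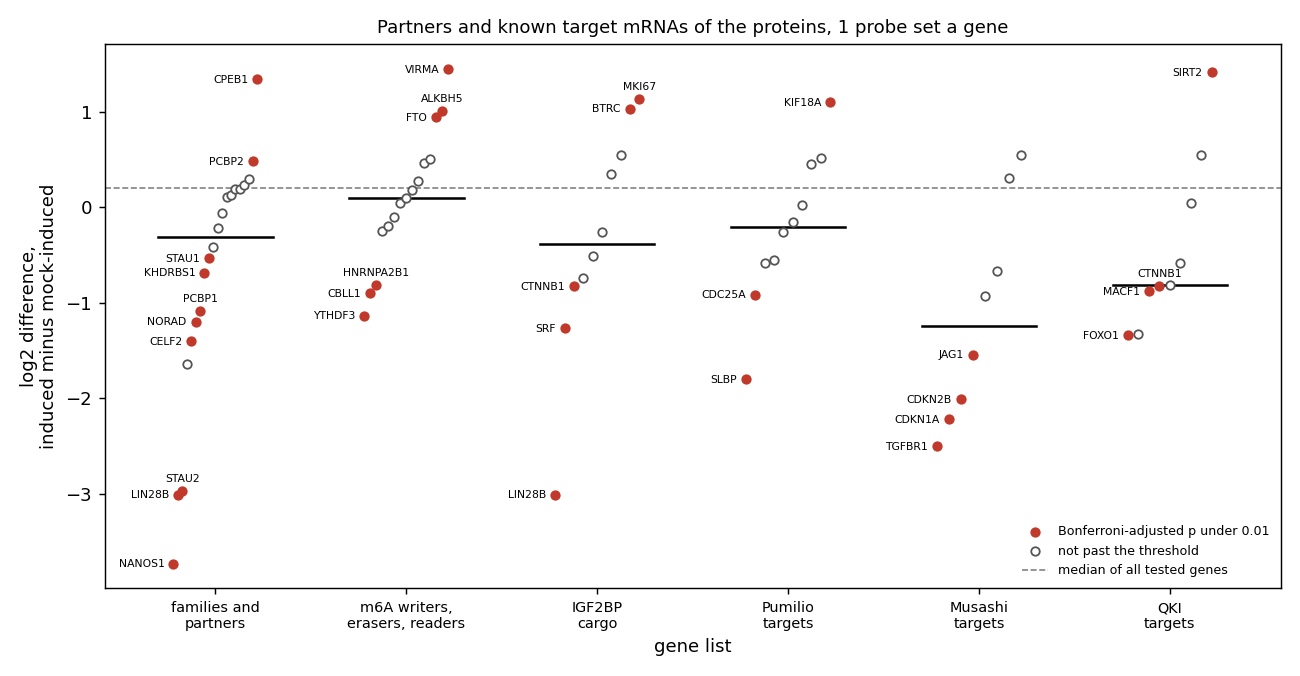
Log2 difference, induced minus mock-induced (y axis), of the tested genes of 6 lists (x axis), with 1 point per gene and a black bar at the median of the list. Filled points passed a Bonferroni-adjusted p under 0.01, and the dashed line marks the median of the 10834 tested genes, 0.20.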

How the data were processed

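Total RNA of 20 cultures was hybridized to Affymetrix Human Genome U133 Plus 2.0 arrays. GCRMA, run by the authors in a version that the sources used here do not name, gave the deposited log2 values, of which 37.9% lie at the floor of 2.19. GCRMA corrects background by probe sequence and forces a common distribution onto all arrays, so a shift of most transcripts would be hidden. Array number, 5 for each group, limits the precision. Gene names are those of the platform annotation, in which 38070 probe sets name 1 gene, 1423 several and 10886 none, and 62 are controls. Gene numbers matched the RefSeq gene table for 38018. Groups and replicate numbers came from the sample labels, which do not say whether replicates are separate cultures; the methods give separate days. The 18639 probe sets of 1 gene whose mean passed 4.5 in any group went into limma 3.58.1 (R 4.3.3), fitted by lmFit and eBayes on the 10 arrays compared, or all 20 for the interaction, after the filter and threshold of the paper's methods. A call is a Bonferroni-adjusted p under 0.01. Single probe sets were also tested with a two-sided exact permutation test of 5 against 5 arrays, whose smallest p is 0.00794. The fit was tested on simulated data. Changes of pairs of probe sets of 1 gene were compared over the 26 pairs with means above 4.5 in both groups, with unadjusted p-values. SDs are over arrays, and SEs and intervals come from limma, except for pairs of probe sets, where the SE comes from the arrays' variances. A fold against a group with all 5 arrays under 4.5 is a bound computed from 4.5.

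All 7 genes are named, with the 3 genes of highest Pearson r to the brightest probe set of each and the called genes of 6 lists; a few uncalled list genes were named after their values were seen. Members, lists and tests were chosen with earlier results of these data known. Alternatives were other scalings, filters, thresholds, variance models and array sets. The file holds no column of other samples. Binding site sequences are from the study's site table, hg19 per the paper's methods. Python 3.11.15, pandas 2.3.3 and matplotlib 3.10.9 were used.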

Additional observations from a re-analysis of the deposited data

Results flagged for a closer look

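Of 84 groups of 5 arrays (21 probe sets in 4 groups), 5 held an array whose distance to the nearest other exceeded Dixon's 95% limit, or 5.95%, where chance alone gives about 1 in 20. QKI 212263_at read 12.36 on parental vehicle replicate 3, against 12.88 to 12.98 on the other 4. IGF2BP1 223689_at read 7.84 on parental doxycycline replicate 4, against 8.15 to 8.27. MSI2 1552364_s_at read 3.74 on induced replicate 2, against 3.93 to 3.95, near background. MSI2 225237_s_at read 9.64 on mock-induced replicate 4, against 9.75 to 9.79. MSI2 243010_at read 6.59 on induced replicate 5, against 7.14 to 7.23.

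For 10 probe sets the effect of doxycycline differed between EGFP-ZFP36 and parental cells by the interaction test in limma. The differences of differences for QKI were −2.87 at 1555154_a_at, −2.64 at 212262_at, −1.88 at 212263_at, −2.16 at 212265_at and −5.43 at 212636_at, the last a fitted value that rests on induced levels under 4.5. Those for MSI2 were −2.30 at 225237_s_at, −2.54 at 225238_at, −1.92 at 225240_s_at and −1.64 at 226134_s_at, and that for IGF2BP1 was 1.54 at 223689_at. The probe set MSI2 243010_at, with 1.55, lay just outside the threshold.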

How the results depend on the processing

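The 10 calls between induced and mock-induced cells stayed between 9 and 13 under the other scalings, filters and variance models with more than 1 probe set a gene, except that leaving out probe sets with the suffix _s_at or _x_at left 7 calls among 12 tested. Leaving out 1 array gave 10 to 11 calls for induction and 10 to 11 for the interaction, and 0 in the other comparisons. With Benjamini-Hochberg adjustment at 0.05 the counts were 20 for induction (85.5% of all), 11 for mock-induced against parental vehicle cells (70.7%), 16 for the interaction (77.6%) and 0 in parental cells. With 1 probe set for each gene, added after seeing the data, 3 of 6 members were called for induction and 2 of 6 for the interaction, where fewer probe sets enter by construction. Centring on poly-A controls turned the uncalled differences of IGF2BP2 218847_at to −0.062 and of IGF2BP3 203819_s_at, 203820_s_at and 216493_s_at to −0.0185, −0.059 and −0.011, and the cause was not tested. The uncalled interaction of IGF2BP1 227377_at was −0.052 with hybridization controls and ranged from −0.036 to 0.47 when 1 array was left out. The methods describe treated and untreated pairs by day but do not tie replicate numbers to days. After the group mean of each probe set was subtracted, same-numbered arrays correlated at 0.014 to 0.21 in EGFP-ZFP36 cells. In parental cells these correlations were −0.19 to 0.38, and not every array was closest to its own number. With the replicate block 9 members were called for induction and 9 for the interaction, MSI2 226134_s_at having adjusted p-values of 0.0196 and 0.0138, and 23.3% of all probe sets were called for induction. Apart from the Benjamini-Hochberg shares above, the share of all probe sets called moved by over 1.5 times under the following settings. For the interaction, against 39.7%, it was 25.9% with hybridization controls, 17.2% with poly-A controls and 17.5% with no filter. For induction, against 44.0%, it was 15.2% with no filter and 23.3% with the replicate block. For mock-induced against parental vehicle cells it moved, against 17.1%, to 9.7% with poly-A controls, 4.94% with the replicate block, 28.7% with all 20 arrays in 1 model and 5.42% with no filter. The 11 probe sets under the filter, the MSI1 one among them, were too close to background for a difference to be judged.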
